A study of Mus musculus with 12 samples.

Results

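The comparison was between ventricles of 3 Clock mutant and 3 wild-type mice killed at 4 months of age. It takes 6 of the 12 arrays of a study of cardiac microRNAs (miRNAs), chosen by the genotype and age in their titles. Clock mice were homozygous for the Clock delta 19 allele, wild-type (WT) mice carried no labelled alteration, and both were of the C57Bl/6J background. All hearts were collected at ZT 6, which is 6 hours after lights on, and snap frozen. The other 6 arrays are of Clock and WT mice of 21 months, 3 each, and serve below as a second comparison of the same genotypes. Every probe set of the deposited table was compared: 1908 for mature miRNAs and 1255 for precursors, 3163 in all.

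A miRNA is transcribed as part of a longer RNA, cut to a hairpin precursor and then by Dicer to a short mature strand, which guides the silencing complex to partly complementary messenger RNAs and lowers their translation or stability. CLOCK pairs with BMAL1 to activate genes through E-box elements, among them the Period and Cryptochrome genes that inhibit the pair and close the daily loop. The delta 19 protein still binds BMAL1 and DNA but activates transcription poorly, and in the mouse it weakens the molecular rhythm of the heart along with that of other tissues. The allele is carried in the germline, so these hearts come from animals whose clock was altered in the whole body, and effects arising in cardiac cells cannot be told apart from effects of altered feeding, activity or hormones. A single time of day was sampled, so a shifted or flattened rhythm cannot be told apart from a changed mean level.

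Each value is the level of a probe set on a scale taken as log2, relative to that probe set's median over the 12 arrays. It shows which hearts were high or low for a given miRNA. It does not show how abundant the miRNA was, or whether it was above background. Probe sets carry miRBase accession numbers, and the files and reference tables used here pair none of them with a miRNA name or sequence (0 IDs matched). MiRNAs are therefore given by ID, at most 2 higher and 2 lower in Clock among mature miRNAs and again among precursors. No role is given to them, no sequence is printed, and the ventricular label could not be checked against muscle miRNAs. The Clock messenger RNA is not among the probe sets, so the genotype labels were not checked either. In heart tissue, fewer cells of a type and less RNA per cell cannot be told apart.

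The young hearts of 1 genotype were hardly more alike than hearts of different genotypes. The root mean square difference between 2 arrays over the mature probe sets, which the centring on medians does not affect, averaged 0.540 on the log2 scale among the 3 pairs of Clock hearts, 0.526 among the 3 pairs of WT hearts, and 0.541 over the 9 pairs of a Clock and a WT heart. For 4 of the 6 hearts the most similar young heart was of the other genotype. Each heart was compared with 3 of the other genotype and only 2 of its own, so the other genotype is the likelier match when nothing differs. WT replicate 2 was nearer to Clock replicates 3 (0.491) and 2 (0.495) than to WT replicates 1 (0.517) and 3 (0.574). The largest difference, 0.607, was between Clock replicate 3 and WT replicate 3. Over mature probe sets, Clock replicates 2 and 3 and WT replicate 2 also stood apart from the rest of the series. On the first principal component of all 12 arrays they were at -11.8, -14.0 and -10.7, and the other 9 between -1.73 and 8.68. This component also divided the ages. The remaining young hearts lay between -1.73 and 1.96, and the hearts of 21 months between 2.34 and 8.68. Over precursors these 3 arrays were less distinct, at -5.20, -6.05 and -2.94, with Clock replicate 1 at -3.14. The differences of the named probe sets of both kinds are also given without these 3 arrays. That leaves 1 Clock and 2 WT hearts of 4 months, and the single Clock heart is then assumed to vary like the other groups. By root mean square difference over mature probe sets, Clock replicate 2 of 21 months was also distant, at 0.589 to 0.707 from each other array. It enters the variance estimate and the 21-month comparison. Without it no mature probe set passed (limma, smallest adjusted p = 0.107), and 140 had an unadjusted p under 0.05.

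**Figure D1:**
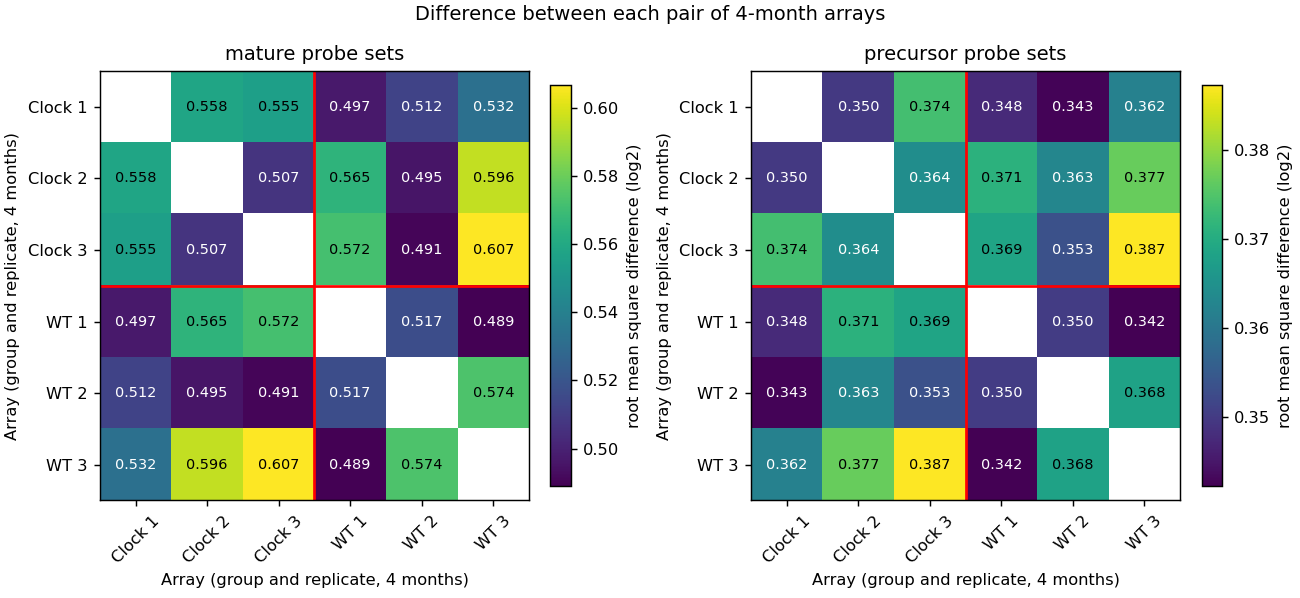
Root mean square difference on the log2 scale between each pair of the 6 arrays of 4 months, over mature (left) and precursor (right) probe sets; the red lines divide Clock from WT arrays. Over mature probe sets the cells within a genotype (upper left and lower right) average 0.540 and 0.526 and those between genotypes 0.541, and WT replicate 2 lies nearest to Clock replicate 3 (0.491).

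Precursor arrays differed less and were as mixed. Differences averaged 0.363 among Clock hearts, 0.354 among WT hearts and 0.364 between genotypes, and the most similar young heart was of the other genotype for 3 of 6. As a single value for the whole comparison, genotype accounted for 21.5% of the variance among the 6 arrays over mature probe sets, where the median over all 20 labellings of 3 arrays as Clock was 18.9% (exact permutation p = 0.2, one-sided, with 0.1 the smallest that 6 arrays allow). Over precursors the share was 21.5% against a median of 20.2% (exact permutation p = 0.2). Both medians include the observed labelling, and a design of this size could not have reached a p under 0.05.

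No mature miRNA differed between Clock and WT hearts at 4 months after adjustment (limma, Benjamini-Hochberg adjusted p under 0.05; 0 of 1908, a background of 0%). An unadjusted p under 0.05 was found for 115 probe sets, 6.03% of those tested, of which 56 (2.94%) were higher in Clock and 59 (3.09%) lower. The threshold itself admits 5% when nothing differs. The differences were centred on 0, with 955 of 1908 above 0 (50.1%), and 1 in 20 lay below -0.55 and 1 in 20 above 0.48. Their median size was 0.159. The fitted standard error of a difference had a median of 0.211. At 21 months the median size of the difference was 0.158.

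Differences beyond 2-fold tended to have large standard errors. There were 28 of 1908 (1.47%), 18 lower and 10 higher in Clock, the lowest at -1.51 and the highest at 1.72. Their standard errors ranged from 0.178 to 1.02 with a median of 0.528, against the median of 0.211 over all mature probe sets. Of the 28, 17 had an unadjusted p under 0.05, and in 10 the Clock and WT values did not overlap. Such separation occurred in 212 of all 1908 probe sets (11.1%), with every Clock value above every WT value in 102 (5.35%) and below in 110 (5.77%), and 79 of the 212 also had an unadjusted p under 0.05.

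**Figure D2:**
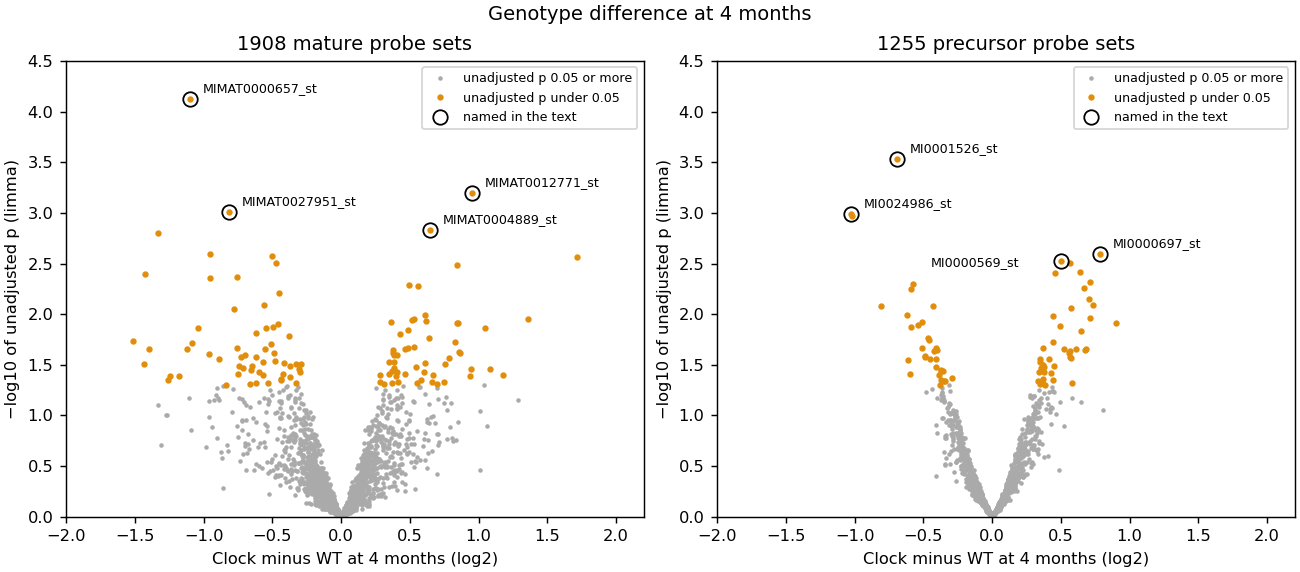
Clock minus WT at 4 months on the log2 scale (x axis) against −log10 of the unadjusted limma p (y axis) for 1908 mature (left) and 1255 precursor (right) probe sets; each point is a probe set, orange marks an unadjusted p under 0.05 and circles the probe sets named in the text. Higher and lower points are about equally many (56 and 59 mature, 43 and 33 precursor), and MIMAT0000657_st has the smallest p.

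The mature probe set with the smallest p was MIMAT0000657_st, lower in Clock. Its values in the 3 Clock hearts were -0.88, -0.998 and -0.90, and in the 3 WT hearts 0.23, 0.24 and 0.043. The Clock hearts lay together and 0.92 below the lowest WT heart, with no overlap. The difference was -1.10 (SE 0.18, 95% confidence interval -1.49 to -0.70; limma, adjusted p = 0.142), or 2.14-fold, and it stayed between -1.16 and -1.06 when each of the 12 arrays was left out. Without the 3 arrays that stood apart it was -1.02. At 21 months the Clock hearts were at -0.13, 0.12 and -0.44 and the WT hearts at 0.44, -0.043 and 0.44. These overlapped, and the difference was -0.43 (SE 0.18), in the same direction as at 4 months (limma, unadjusted p = 0.034, adjusted p = 0.789). The change of the genotype difference between ages was -0.66 (SE 0.25; limma interaction, adjusted p = 0.972).

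MIMAT0027951_st was the next lower mature probe set. Its Clock hearts were at -0.20, -0.42 and -0.44 and its WT hearts at 0.81, 0.072 and 0.51. WT replicate 2 was the nearest to the Clock hearts, 0.27 above the highest of them. The difference was -0.81 (SE 0.18; limma, adjusted p = 0.604), from -1.01 without WT replicate 2 to -0.64 without WT replicate 1, and -0.86 without the 3 arrays that stood apart. At 21 months the sign was opposite, with Clock hearts at -0.006, 0.12 and 0.052 and WT hearts at 0.006, -0.33 and -0.20. The groups there overlapped, and the difference was 0.23 (SE 0.18; limma, adjusted p = 0.879). The genotype difference changed by -1.05 between ages (SE 0.26) and did not pass the test (limma interaction, adjusted p = 0.538).

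The higher mature probe set with the smallest p was MIMAT0012771_st. It was at 0.78, 0.77 and 0.37 in Clock and at -0.14, -0.25 and -0.54 in WT hearts. All WT hearts were below the median of the probe set and all Clock hearts above it, with a gap of 0.51. The difference was 0.95 (SE 0.20; limma, adjusted p = 0.604), or 1.93-fold. At 21 months it was 0.14 (SE 0.20; limma, adjusted p = 0.946), with values of 0.45, 0.017 and -0.017 in Clock and -0.16, -0.14 and 0.34 in WT hearts, which overlapped.

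MIMAT0004889_st followed, at 0.25, 0.13 and 0.44 in Clock and -0.46, -0.35 and -0.32 in WT hearts of 4 months. The groups were 0.45 apart. The difference was 0.65 (SE 0.15; limma, adjusted p = 0.604), or 1.57-fold, and at 21 months it was 0.27 (SE 0.15; limma, adjusted p = 0.83). The old groups overlapped, with Clock at 0.18, 0.43 and -0.056 and WT at -0.25, 0.025 and -0.025. Without the 3 arrays that stood apart, the 4-month differences of MIMAT0012771_st and MIMAT0004889_st were 1.12 and 0.64.

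**Figure D3:**
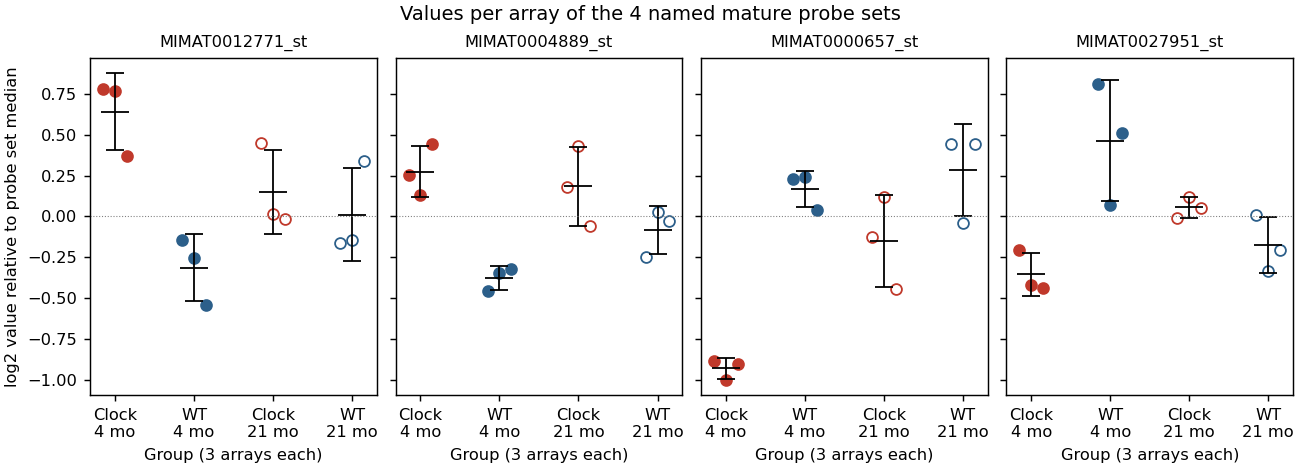
Values of the 4 named mature probe sets (log2, relative to its median over 12 arrays) in Clock (red) and WT (blue) hearts of 4 months (filled) and 21 months (open); each point is an array and bars are mean ± SD (n = 3). Clock and WT hearts do not overlap at 4 months in any of the 4 and overlap at 21 months in all 4. The 4 were chosen for the smallest p at 4 months, which favours separation at that age, so the contrast with 21 months does not measure a change with age.

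No precursor probe set passed at 4 months (limma, 0 of 1255, a background of 0%, smallest adjusted p = 0.369). An unadjusted p under 0.05 was found for 76 (6.06%), with 43 (3.43%) higher and 33 (2.63%) lower in Clock. Without the 3 arrays that stood apart over mature probe sets a single Clock heart of 4 months is left, so no such counts are given for that fit. Precursor differences were smaller than mature ones, with a median size of 0.126, 1 in 20 below -0.32 and 1 in 20 above 0.36. Only 2 of 1255 (0.159%) passed 2-fold, both lower in Clock. The 95% confidence interval of the difference lay within a 2-fold change in either direction for 1218 precursor probe sets (97.1%) and for 1480 mature ones (77.6%). Probe sets without signal cannot be removed from these counts. The groups did not overlap in 124 precursor probe sets (9.88%), with Clock above in 58 (4.62%) and below in 66 (5.26%). This too was close to the share of 0.1 that separates when nothing differs.

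MI0001526_st had the smallest p among precursors. It was at -0.28, -0.50 and -0.31 in Clock hearts and 0.27, 0.34 and 0.38 in WT hearts. All 3 Clock hearts lay on one side of the probe set's median and all 3 WT hearts on the other, 0.55 apart. The difference was -0.69 (SE 0.15; limma, adjusted p = 0.369), or 1.62-fold lower, and it ranged from -0.73 to -0.63 when each array was left out. At 21 months it was 0.16 (SE 0.15; limma, adjusted p = 0.987) with overlapping values, and the change between ages was -0.86 (SE 0.21; limma interaction, adjusted p = 0.516).

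MI0024986_st was lower by a larger amount, part of which came from 1 WT heart. Its Clock values were -0.34, -0.47 and -0.57 and its WT values 0.24, 1.16 and 0.32, so that WT replicate 2 was far above the other WT hearts. The groups did not overlap, with a gap of 0.57. At 21 months they overlapped, with a difference of 0.14 (SE 0.26; limma, adjusted p = 0.987). The 4-month difference was -1.03 (SE 0.26; limma, adjusted p = 0.445). It was -0.74 without WT replicate 2 and -0.62 without the same 3 arrays as above. It passed when only the more variable precursor probe sets were tested (limma, adjusted p = 0.011, over a range of 0.011 to 0.848 across the alternatives).

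Of the higher precursors, MI0000697_st had the smallest p, with overlapping groups. Clock hearts were at 0.96, 1.17 and 0.16 and WT hearts at -0.38, 0.10 and 0.20. Clock replicate 3 lay below WT replicate 3. At 21 months the difference was -0.060 (SE 0.22; limma, adjusted p = 0.987), with overlapping groups. At 4 months it was 0.79 (SE 0.22; limma, adjusted p = 0.587). Without Clock replicate 3 it was 1.09 and passed (limma, adjusted p = 0.0441, over a range of 0.0441 to 0.889 across the alternatives), and without Clock replicate 2 it was 0.58. A second probe set for the same precursor, MI0000697_x_st, gave 0.93, 1.13 and 0.16 in Clock and -0.39, 0.34 and 0.18 in WT hearts, a difference of 0.70 (SE 0.23; limma, adjusted p = 0.646), with the same array low among the Clock hearts.

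MI0000569_st was at 0.37, 0.20 and 0.041 in Clock and -0.43, -0.28 and -0.18 in WT hearts. The groups did not overlap, with a gap of 0.22. The difference was 0.50 (SE 0.14; limma, adjusted p = 0.587), or 1.41-fold. At 21 months it was 0.013 (SE 0.14; limma, adjusted p = 0.989). Without the same 3 arrays, the 4-month differences of MI0000569_st, MI0000697_st and MI0001526_st were 0.68, 1.05 and -0.61.

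**Figure D4:**
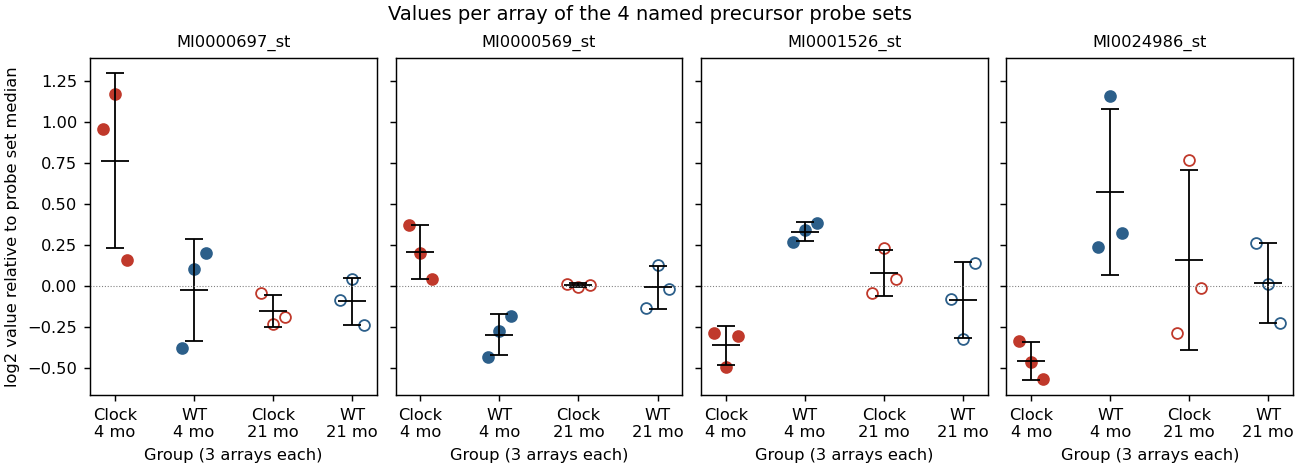
Values of the 4 named precursor probe sets (log2, relative to its median over 12 arrays) in Clock (red) and WT (blue) hearts of 4 months (filled) and 21 months (open); each point is an array and bars are mean ± SD (n = 3). For MI0000697_st Clock replicate 3 (0.16) lies among the WT hearts, and for MI0024986_st WT replicate 2 (1.16) lies above the other WT hearts.

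The 1255 precursor probe sets stand for 1180 precursors, and 75 precursors have a pair of probe sets, which read the same RNA on the same arrays and may share probes. In 56 of these 75 both probe sets differed in the same direction at 4 months. The 2 differences were a median of 0.061 apart and at most 0.45 apart, beside a median size of 0.110. In 7 pairs at least 1 probe set had an unadjusted p under 0.05, and in 4 of the 7 both did, in the same direction.

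The genotype difference at 21 months uses none of the 4-month arrays. Of the 115 mature probe sets with an unadjusted p under 0.05 at 4 months, 69 differed in the same direction at 21 months (60.0%), beside 1031 of all 1908 (54.0%). The 56 that were higher at 4 months had a median difference of 0.55 then and 0.022 at 21 months. The 59 that were lower had medians of -0.62 and -0.052. Both sets were chosen for a small p at 4 months, which enlarges their 4-month medians. Medians nearer to 0 at 21 months would follow from that choice even without a change with age. An unadjusted p under 0.05 at both ages occurred in the same direction for 15 and in opposite directions for 4, where 5.87% of mature probe sets had such a p at 21 months. Both contrasts use 1 variance estimate per probe set, so a low estimate favours a small p in both, in the same or in opposite directions. The split of 15 to 4 was not tested.

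Of the 76 precursor probe sets with such a p at 4 months, 36 differed in the same direction at 21 months (47.4%), beside 622 of all 1255 (49.6%), and an unadjusted p under 0.05 at both ages occurred for 1 in the same direction and 4 in opposite directions, beside 5.02% at 21 months. These shares were not tested, and neither was the gap between mature and precursor probe sets.

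**Figure D5:**
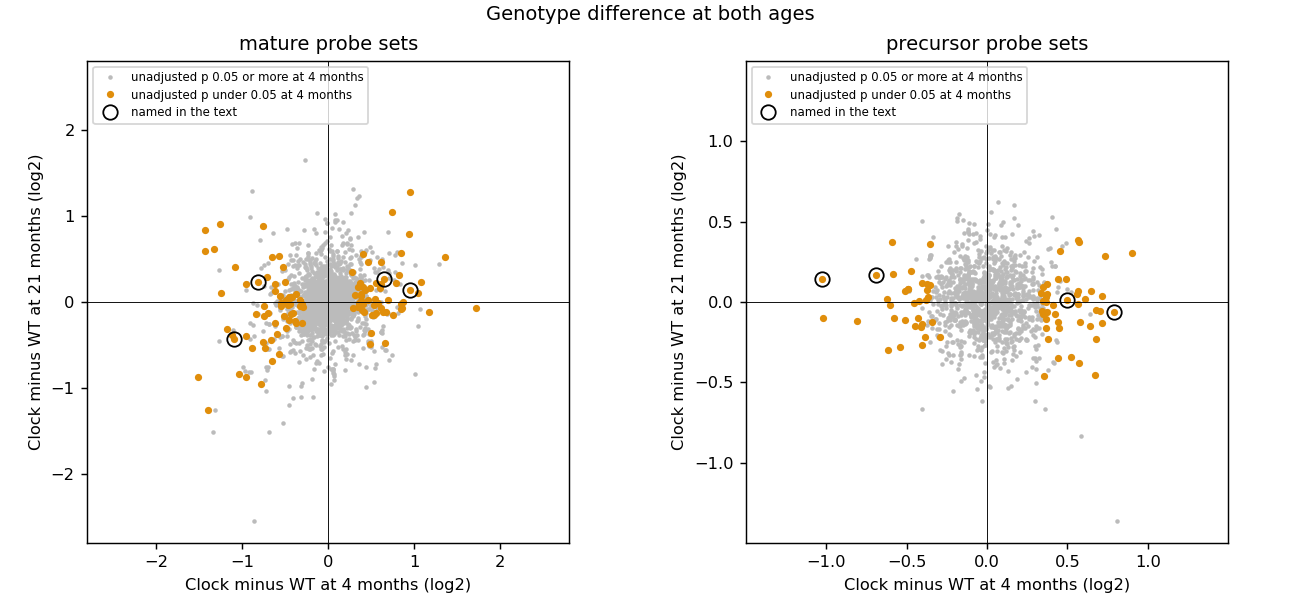
Clock minus WT on the log2 scale at 4 months (x axis) and 21 months (y axis) for mature (left) and precursor (right) probe sets; each point is a probe set, orange marks an unadjusted p under 0.05 at 4 months and circles the named probe sets. The orange mature points have medians on the y axis of 0.022 for the 56 higher and -0.052 for the 59 lower mature probe sets.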

How the data were processed

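MiRNAs were measured on biotin-labelled arrays of total RNA from 12 mouse ventricles, 3 per genotype and age. The deposited values are log2, as taken here, each relative to the median of its probe set over the 12 arrays, which was 0 within 1e-06 for all 3163 probe sets. No source used here gives the base of the logarithm, the normalization between arrays or the background correction. The labels call the replicates biological, and each array was counted as 1 animal.

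Group means over all 12 arrays were fitted in limma 3.58.1 (R 4.3.3), separately for mature and precursor probe sets, with empirical Bayes variances, 8 residual degrees of freedom and Benjamini-Hochberg adjustment over the probe sets of each kind. The contrasts were Clock minus WT at each age and their difference. The members, tests and 19 miRNA lists were chosen with earlier results of these data known. Without miRNA names the lists, and the arms of each hairpin, could not be described. Named probe sets are the 2 higher and 2 lower in Clock with the smallest p of each kind. The root mean square differences, the paired precursor probe sets and the directions at 21 months were added after seeing the data. Recovery of known differences was measured in 20 simulated draws with 200 changed probe sets. For mature probe sets, 15.1% of log2 differences of 0.5 and 73.5% of differences of 1 were recovered. For precursors the shares were 44.6% and 98.7%. Most simulated differences of 0.5 were therefore missed in both kinds. Recovery with fewer changed probe sets was not tested. Replicate numbers of Clock and WT hearts of 4 months did not pair the samples (correlations of deviations 0.108, 0.0817 and -0.0804). The number of arrays limits the precision.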

Additional observations from a re-analysis of the deposited data

How the results depend on the processing

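The alternatives were quantile normalization, centring each array on its median, array weights, only the 6 arrays of 4 months, the replicate block, joint adjustment of mature and precursor probe sets, an adjusted p under 0.10, a robust variance estimate, a filter keeping the more variable probe sets, and fits without each array or without the 3 that stood apart over mature probe sets. The count of mature miRNAs called at 4 months was 0 in 21 of 22 alternatives. Fits without a single array gave 0 to 1, the 1 call being higher in Clock and found without WT 4-month replicate 1. Precursor calls were 0 in 19 of 22, and fits without a single array gave 0 to 1, with 1 call without Clock 4-month replicate 3 (MI0000697_st) and 1 other, higher in Clock, without WT 4-month replicate 2. They were 2, both lower, when only the 627 more variable probe sets were tested. That fit gave every probe set the same standard error, and its filter uses a spread that includes the genotype difference. Counts at an unadjusted p under 0.05 then fell to 53 mature and 42 precursor probe sets because fewer were tested, and ranged over 85 to 145 and 65 to 87 in fits without a single array. With the replicate block there were 0 calls of either kind, and 122 mature and 74 precursor probe sets at an unadjusted p under 0.05, and it changed no call. Of 6 arrays, 2 correlated best with their own number over mature probe sets. The 8 named differences kept their sign in every alternative run. None of the 8 passed for genotype at 21 months or for the interaction in any of 21 alternatives. The variance share was 21.5% to 31.7% for mature and 20.4% to 28.5% for precursor probe sets. The mature share was highest without WT 4-month replicate 2 (31.7%) or Clock 4-month replicate 1 (31.0%), where the median over labellings was 23.2% and 22.3% (exact permutation p = 0.2 in both). Without each of the other 4 young arrays it was 22.9% to 24.7%, beside medians of 23.2% to 23.9% (exact permutation p = 0.4 to 0.6). Without WT 4-month replicate 1 the share of 22.9% lay below its median of 23.6%. Precursor shares without a single young array had p = 0.2 to 0.7 in the same exact permutation. Each fit without a young array has 10 labellings and a smallest exact permutation p of 0.1. None could therefore have reached a p under 0.05. The miRNA lists and hairpin arms gave no value because the IDs have no names. Signal over background is unknown.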
